A study of Mus musculus with 13 samples.

Results

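The thermogenic programme of brown fat is followed here through 10 genes, namely Ucp1, Cidea, Elovl3, Fabp3, Ppargc1a, Prdm16, Ebf2, Zic1, Adrb3 and Dio2. They were chosen by symbol, as genes known for heat production in brown fat, and found on the array through the RefSeq record of each probe. They are 10 of 19752 named genes on the array and are measured by 14 probes, all of which passed the filter on dim probes. Zic1, Adrb3, Fabp3 and Ppargc1a have 2 probes each, and the other members have 1.

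Brown adipocytes burn fatty acids in mitochondria whose proton gradient is short-circuited by uncoupling protein 1, so that the energy is released as heat. Cold acts through noradrenaline, the β3-adrenergic receptor and cyclic AMP, which free fatty acids from lipid droplets and switch on genes of heat production. White adipocytes mainly store lipid, and in mice some white depots can gain cells that switch on part of the same programme.

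RNA of fat from male C57BL/6J mice was hybridised to 1-colour Agilent arrays. In the Fv2E-PERK protein, the kinase part of PERK, which starts the integrated stress response, is joined to a domain that pairs when the ligand AP20187 binds it. Brown fat (BAT) of Fv2E-PERK mice was taken 12 h after an intraperitoneal injection of AP20187 at 100 ng/g (2 arrays) or of its vehicle (2 arrays). White fat (WAT) came from Fv2E-PERK mice given AP20187 in the same way (3 arrays) or vehicle (2 arrays), and from wild-type mice that were left untreated (3 arrays). All BAT therefore carries the transgene, and no wild-type mice were given AP20187. The design writes the transgene as mAP::Fv2E-PERK, and the labels do not say which promoter or cell type that stands for, which white depot was taken, or how old the mice were. Nor do they say that each array is a different animal, so the p-values reflect variation among arrays, which may be technical. A 13th array has contradictory tissue labels and enters no comparison.

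Levels are on the log2 scale relative to the 75th percentile of each array's processed signal, so 0 is that percentile, and they compare 1 probe between arrays but not 1 probe with another. Between 46.4% and 49% of spots were well above background on BAT arrays, 49% to 51.5% in WAT with AP20187, 61.2% and 64% in WAT with vehicle, and 57.9% to 60.6% in wild-type WAT. No spot was saturated. The arrays lie on 3 slides. All BAT arrays share slide 3, WAT with AP20187 shares slide 2 with WAT vehicle 2, and WAT vehicle 1 shares slide 1 with wild type 1 to 3. Tissue and slide therefore cannot be told apart, nor can AP20187 and slide when WAT with AP20187 is set against wild type. The level of Eif2ak3, which encodes PERK, was 1.17 ± 0.01 (SD, n = 2) in AP20187 BAT and 0.92 ± 0.02 (n = 2) in vehicle BAT. In WAT it was 1.25 ± 0.14 (n = 3) after AP20187, 1.05 ± 0.16 (n = 2) after vehicle and 1.02 ± 0.14 (n = 3) in wild type. Whether its probe detects the transgene is not known.

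The 250 bases upstream of the start of 4 members are shown because cyclic AMP acts on this programme through the cyclic AMP response element, and their sequences differ in how much of it they hold. RefSeq entries of build GRCm38.p6 were matched for 6 of the 10 members. Capitals mark the half-site TGACG, written as its complement where it lies on the other strand, or the whole element TGACGTCA, and each sequence runs 5′ to 3′ toward the gene.
Ucp1, chr8:83290098-83290347, plus strand: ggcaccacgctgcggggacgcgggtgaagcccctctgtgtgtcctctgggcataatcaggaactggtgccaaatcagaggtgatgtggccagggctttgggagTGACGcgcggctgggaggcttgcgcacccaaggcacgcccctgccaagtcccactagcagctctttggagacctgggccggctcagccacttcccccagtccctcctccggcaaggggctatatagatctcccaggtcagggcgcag
Dio2, chr12:90739039-90739288, minus strand: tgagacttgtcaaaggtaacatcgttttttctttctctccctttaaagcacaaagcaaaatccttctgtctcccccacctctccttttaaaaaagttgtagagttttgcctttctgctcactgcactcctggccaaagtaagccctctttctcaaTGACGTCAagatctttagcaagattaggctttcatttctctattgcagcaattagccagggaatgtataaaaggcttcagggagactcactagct
Fabp3, chr4:130308488-130308737, plus strand: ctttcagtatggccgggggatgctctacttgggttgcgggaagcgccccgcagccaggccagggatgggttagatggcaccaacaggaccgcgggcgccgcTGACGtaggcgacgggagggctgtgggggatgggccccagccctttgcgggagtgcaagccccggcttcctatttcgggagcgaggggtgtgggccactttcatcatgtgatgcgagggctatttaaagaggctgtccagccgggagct
Ppargc1a, chr5:51567726-51567975, minus strand: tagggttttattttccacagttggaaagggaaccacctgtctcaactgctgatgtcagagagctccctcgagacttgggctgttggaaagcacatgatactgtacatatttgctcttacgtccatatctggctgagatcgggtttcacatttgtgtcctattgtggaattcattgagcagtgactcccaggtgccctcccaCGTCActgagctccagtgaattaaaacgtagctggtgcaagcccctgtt
Dio2 held the whole element 95 to 88 bases upstream of the start. The half-site, which the whole element contains, lay 147 to 143 bases upstream in Ucp1, 149 to 145 in Fabp3 and, on the other strand, 49 to 45 in Ppargc1a. Searched on both strands, TGACG was present in 17.8% of 32851 RefSeq promoter windows of the same length and TGACGTCA in 1.55%. Prdm16 and Zic1, the other matched members, held neither. TGATGNAA, a composite of C/EBP and ATF sites, was found in 3.45% of windows and in Fabp3 on the other strand, 51 to 44 bases upstream. The DR1 repeat bound by PPAR receptors (0.0335% of windows), an ERR element (TCAAGGTCA, 0.387%) and the EBF palindrome (0.779%) were found in 0 of the 6 members. The motifs were chosen after the sequences were seen, and a match describes letters in this window only.

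The first question was how far the members set brown fat apart from white fat. In mice given AP20187, 7 of the 10 members were higher in BAT than in WAT, which are Ucp1, Cidea, Fabp3, Elovl3, Ppargc1a, Prdm16 and Ebf2, against 13.1% of all features tested. In vehicle-injected mice 6 of the 10 were higher, the same genes without Elovl3, against 14.3% of all features. In the other direction 0 of 10 passed in either comparison, against 16.9% of all features with AP20187 and 9.17% with vehicle. The median change of the members was 2.30 on the log2 scale with AP20187, against -0.05 over all features, and 3.01 with vehicle, against 0.10. Lack of overlap between the tissues is common here. With AP20187 it held for 24.8% of all features as higher in BAT and 29.2% as lower, and with vehicle for 39% and 30%. Of the 10 members, 7 were higher and 0 lower without overlap with AP20187, and 8 and 1 with vehicle. Placing the array with contradictory labels in BAT with vehicle left 0 of 10 members past the threshold for vehicle. That array lies on slide 2 with WAT arrays, and its Ucp1 level was -4.57, against 9.87 to 10.63 in BAT. The pair of comparisons shares no array, and the members were chosen as genes known for brown fat. Ucp1 and 1 probe of Zic1 passed the filter on dim probes through the BAT groups alone, where they are high. Their adjusted p-values against WAT are therefore given as a description.

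Ucp1, the uncoupling protein itself, showed the widest difference. Its level was 9.87 and 10.45 in BAT after AP20187 and 10.63 and 9.89 after vehicle, against -4.15, -4.14 and -3.41 in WAT after AP20187, -7.23 and -5.28 after vehicle and -6.81, -5.60 and -5.26 in wild type. Every BAT array lay far above every WAT array, and among the 8 WAT arrays Ucp1 was well above background on WAT AP20187 3 alone. With AP20187 the fitted log2 change was 14.06 (limma, SE 0.63, adjusted p = 1.08e-05), and since 2 of the 3 WAT values are only bounds it is not given as a fold. With vehicle, where both WAT arrays were dim, Ucp1 was at least 42470-fold higher in BAT by this scaling (adjusted p = 1.18e-05). The bound depends on the background treatment, and under normexp with quantile scaling, which raises dim values by an offset, the fitted log2 change was 11.24 against 16.51 here. By size of the fitted BAT minus WAT change, Ucp1 ranked 1 among 15086 named genes in both comparisons.

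Cidea, a lipid droplet protein of brown adipocytes, stood at 11.29 and 11.45 in BAT after AP20187 and 11.56 and 10.85 after vehicle, against 1.97, 4.06 and -2.37 in WAT after AP20187, 2.62 and 3.04 after vehicle and 2.19, 1.49 and 1.94 in wild type. It was well above background on all 12 arrays, including every WAT array, which sets it apart from Ucp1. The lowest value, on WAT AP20187 3, came from a spot in a weak area of that array, where the median deviation of 66 neighbouring spots was -4.47. With AP20187 the log2 change from WAT to BAT was 10.15 (SE 1.45, adjusted p = 0.00148), and 8.36 (SE 0.61, adjusted p = 8.57e-05) without the spots in weak areas, a setting chosen after seeing the data. With vehicle Cidea was 333-fold higher in BAT than in WAT (log2 change 8.38, SE 1.59, adjusted p = 0.00641).

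Fabp3, which carries fatty acids in heart, muscle and brown fat, was at 9.5 and 9.02 in BAT after AP20187 and 8.94 and 8.97 after vehicle, against -1.15, -2.55 and -2.51 in WAT after AP20187, -1.66 and -2.14 after vehicle and -0.93, -0.94 and 0.67 in wild type. The BAT arrays lay close together and all above the WAT arrays. The ratio of BAT to WAT was 2570-fold with AP20187 (SE of the log2 change 0.57, adjusted p = 1.78e-05) and 1851-fold with vehicle (SE 0.62, adjusted p = 4.75e-05). The other probe of Fabp3 read 9.26 and 8.75 in BAT after AP20187, 8.80 and 8.78 after vehicle, and between -2.66 and 0.38 on WAT arrays.

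Elovl3, a fatty acid elongase that is induced in brown fat by cold, was the member that varied most among the BAT arrays. Its level was 3.74 and 5.96 in BAT after AP20187 and 6.31 and -0.84 after vehicle, against -2.38, -1.18 and -2.13 in WAT after AP20187, -6.39 and -1.77 after vehicle and -5.24, -5.31 and -6.82 in wild type. All BAT arrays were above all WAT arrays, but BAT vehicle 3 lay just above the highest of them, and Elovl3 was not well above background on WAT vehicle 1 or on any wild-type array. BAT vehicle 3 also has the highest sum of skeletal muscle markers in BAT, 10.38. Of the 11 genes enriched in white fat, 5 were highest in BAT on this array, 3 were lowest and 3 lay between. Nnat read 3.46 there (at most 0.40 on the other BAT arrays), and Agt read -4.18 (at least -2.75 on the others). The part of either in the Elovl3 value was not tested. With AP20187 Elovl3 was higher in BAT (log2 change 6.74, SE 1.97, adjusted p = 0.0317), and leaving out any 1 of those 5 arrays ended the call, with adjusted p between 0.0504 and 0.167. With vehicle the change was 6.81 (SE 2.16, 95% interval 1.91 to 11.71) and missed the threshold (adjusted p = 0.0505). Without BAT vehicle 3 it was 10.39 (adjusted p = 0.00681) and without WAT vehicle 2 it was 9.12 (0.0461), whereas without BAT vehicle 2 it was 3.24 (0.28) and without WAT vehicle 1 it was 4.51 (0.279).

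**Figure D1:**
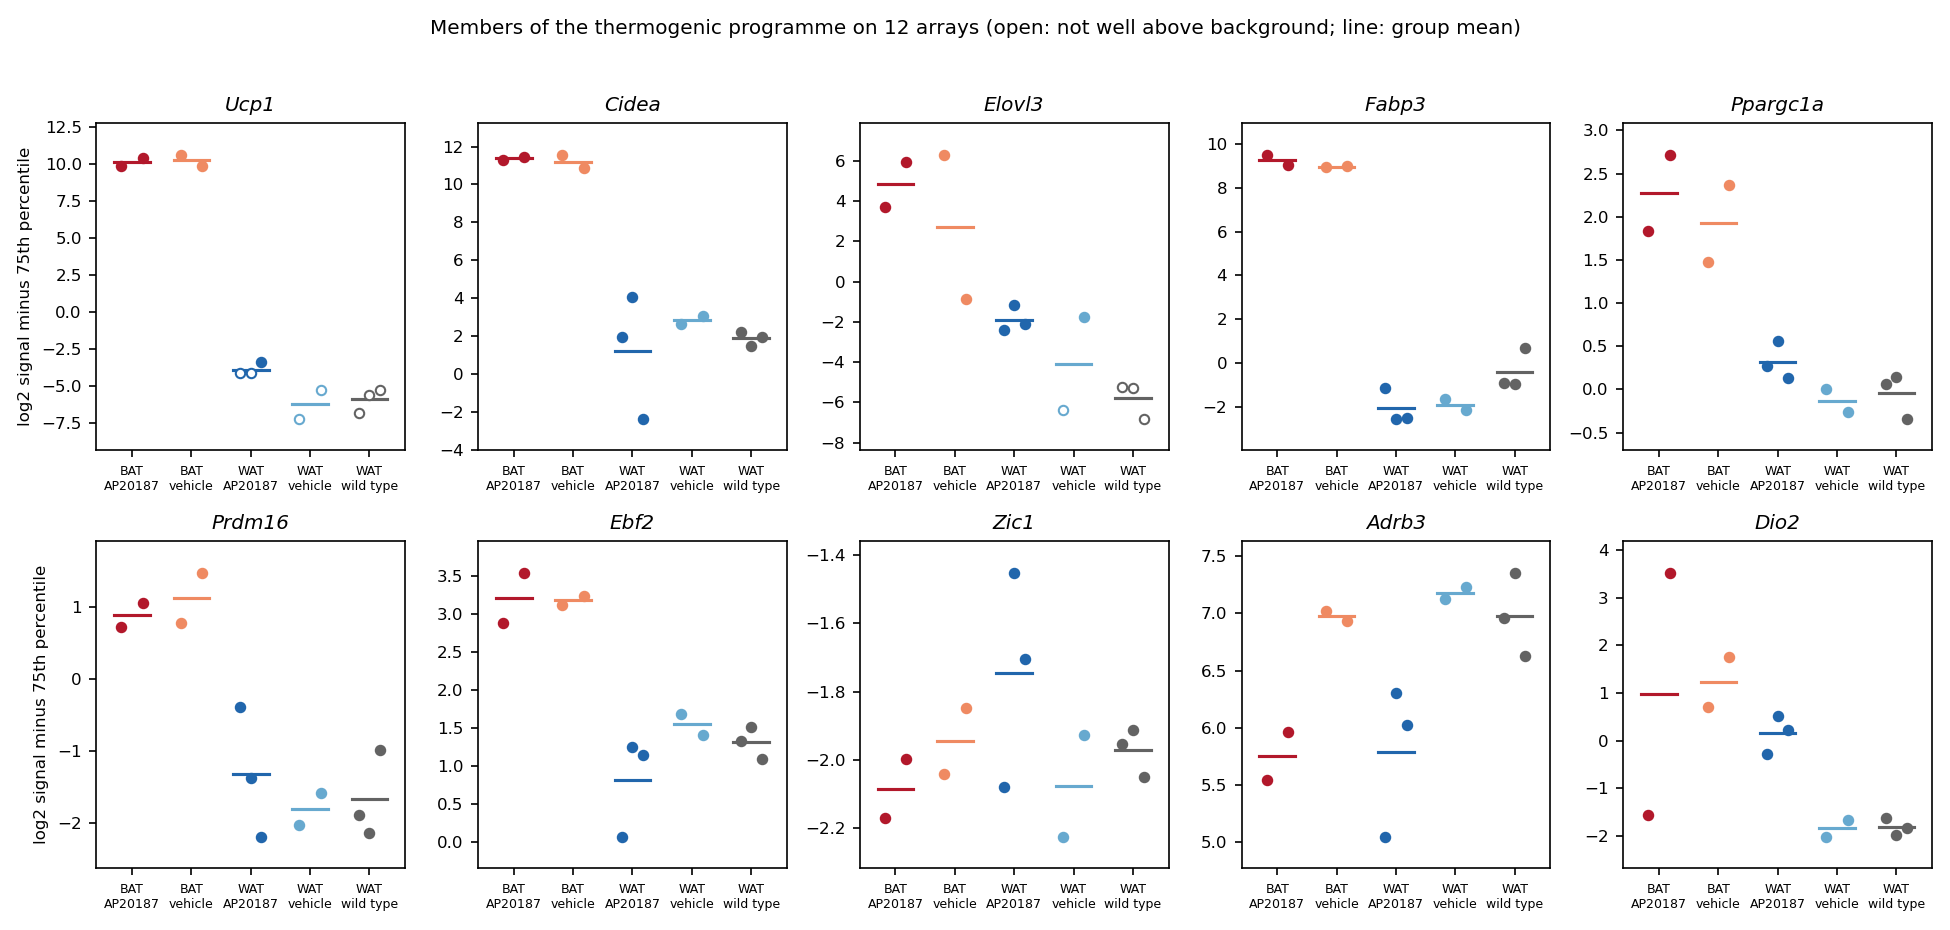
Level of the 10 members (y axis, log2 of the signal relative to the 75th percentile of the array) on each of 12 arrays, with BAT left of WAT and AP20187 left of vehicle and of untreated wild type; open points were not well above background and bars are group means. Ucp1, Cidea and Fabp3 separate BAT from WAT most widely, Adrb3 and the tested probe of Zic1 do not separate them, and Dio2 spreads from -1.57 to 3.53 in BAT with AP20187.

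Among the regulators, Ppargc1a, a coactivator that raises the number of mitochondria and the output of Ucp1, measured 1.84 and 2.72 in BAT after AP20187 and 1.48 and 2.37 after vehicle, against 0.27, 0.57 and 0.13 in WAT after AP20187, 0.00 and -0.26 after vehicle and 0.06, 0.15 and -0.34 in wild type. The BAT arrays lay above all WAT arrays. It was 3.88-fold higher in BAT than in WAT with AP20187 (log2 change 1.96, SE 0.34, adjusted p = 0.00358) and 4.15-fold higher with vehicle (2.05, SE 0.37, adjusted p = 0.00521). Its other probe gave the same order of tissues, with -1.25 and -0.50 in BAT after AP20187, -1.91 and -0.91 after vehicle and -3.75 to -2.93 on WAT arrays.

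Prdm16, a transcriptional cofactor that directs cells to the brown fat fate in mice, stood at 0.72 and 1.05 in BAT after AP20187 and 0.78 and 1.47 after vehicle, against -0.40, -1.38 and -2.19 in WAT after AP20187, -2.03 and -1.58 after vehicle and -1.89, -2.14 and -0.99 in wild type. BAT and WAT did not overlap. Prdm16 was 4.64-fold higher in BAT with AP20187 (log2 change 2.21, SE 0.52, adjusted p = 0.0140) and 7.64-fold higher with vehicle (2.93, SE 0.57, adjusted p = 0.00736). The first call was lost without either BAT array with AP20187 (adjusted p = 0.0531 and 0.0816), and the second without WAT vehicle 1 (0.0507).

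Ebf2, a transcription factor that opens brown fat genes, was at 2.88 and 3.54 in BAT after AP20187 and 3.13 and 3.24 after vehicle, against 0.07, 1.26 and 1.14 in WAT after AP20187, 1.69 and 1.42 after vehicle and 1.34, 1.51 and 1.09 in wild type. The tissues did not overlap. The change was 2.39 with AP20187 (SE 0.36, adjusted p = 0.00191) and 1.63 with vehicle (SE 0.40, adjusted p = 0.0184). The call with vehicle was lost when any 1 of its 4 arrays was left out, with adjusted p between 0.0606 and 0.0942.

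Zic1, a transcription factor of the lineage from which interscapular brown fat arises, gave a different answer on each of its probes. The tested probe, chosen by its higher mean, read -2.17 and -2.0 in BAT after AP20187 and -2.04 and -1.85 after vehicle, against -2.08, -1.45 and -1.71 in WAT after AP20187, -2.22 and -1.93 after vehicle and -1.95, -1.91 and -2.05 in wild type. Its groups overlapped, and the BAT minus WAT change was -0.34 with AP20187 (95% interval -0.81 to 0.13, adjusted p = 0.244) and 0.13 with vehicle (-0.38 to 0.64, adjusted p = 0.732). The other probe read 1.63 and 1.57 in BAT after AP20187 and 0.93 and 1.19 after vehicle, and was dim on all 8 WAT arrays at -7.27 to -5.85. Set against the lowest signal well above background on the dim arrays, it was at least 53.5-fold higher in BAT with AP20187 by this scaling. With vehicle it was at least 72.2-fold higher. A limma fit of all 32616 probes gave log2 changes of 7.70 (adjusted p = 4.89e-07) and 8.26 (5.87e-07). The bounds depend on the background treatment. Under normexp with quantile scaling, where this probe was tested, the fitted log2 changes were 3.44 and 3.08. Which probe follows the Zic1 transcript was not tested.

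**Figure D2:**
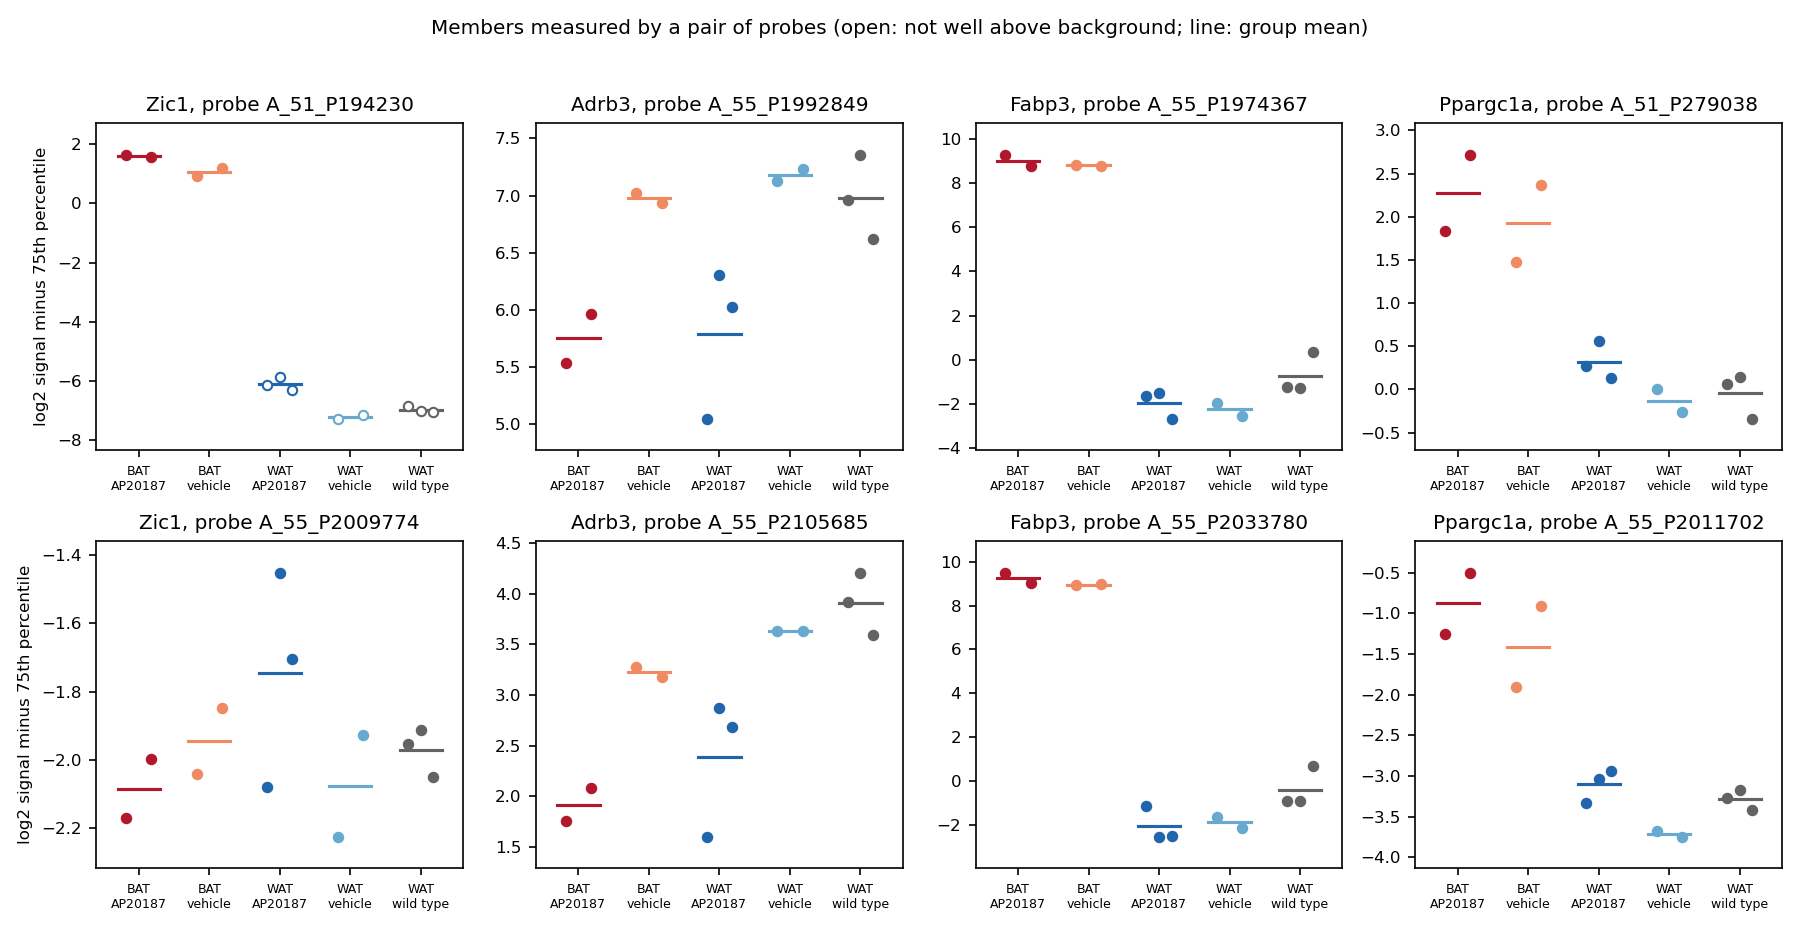
Levels of both probes (y axis, log2 relative to the 75th percentile) of Zic1, Adrb3, Fabp3 and Ppargc1a on 12 arrays, BAT left of WAT; open points were not well above background. Both probes of Fabp3 and of Ppargc1a lie higher on every BAT array than on any WAT array, and both probes of Adrb3 lie lower after AP20187 than after vehicle in each tissue, whereas the tested Zic1 probe stays between -2.22 and -1.45 and the other lies above 0.9 in BAT and below -5.8 in WAT.

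Adrb3, the adrenergic receptor of adipocytes that receives noradrenaline, was bright on every array. It read 5.54 and 5.96 in BAT after AP20187 and 7.02 and 6.93 after vehicle, against 5.05, 6.30 and 6.03 in WAT after AP20187, 7.13 and 7.23 after vehicle and 6.96, 7.36 and 6.62 in wild type. In each tissue the AP20187 arrays lay below the vehicle arrays, and the tissues overlapped with AP20187. With vehicle the BAT arrays lay just below the WAT arrays, as they did for 30% of all features. The BAT minus WAT change was -0.04 with AP20187 (95% interval -0.87 to 0.79, adjusted p = 0.941) and -0.20 with vehicle (-1.11 to 0.70, adjusted p = 0.764). The value with vehicle depended on the scaling, at -1.0 under quantile scaling (adjusted p = 0.0505) and -0.975 under normexp with quantile scaling (0.0355).

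Dio2, the deiodinase that makes active thyroid hormone in brown fat, differed most between the AP20187 arrays of BAT. It stood at -1.57 and 3.53 in BAT after AP20187 and 0.71 and 1.76 after vehicle, against -0.27, 0.52 and 0.22 in WAT after AP20187, -2.02 and -1.67 after vehicle and -1.64, -1.99 and -1.84 in wild type. The BAT arrays with AP20187 lay on either side of all BAT vehicle and WAT AP20187 arrays, whereas with vehicle BAT lay above WAT. The BAT minus WAT change was 0.82 with AP20187 (95% interval -1.80 to 3.45, adjusted p = 0.609) and 3.08 with vehicle (0.21 to 5.95, adjusted p = 0.114). With AP20187 the value turned on 1 array, at 3.37 (adjusted p = 0.00336) without BAT AP20187 1 and -1.73 (adjusted p = 0.0351) without BAT AP20187 2. With vehicle the call was made when either of those arrays was left out of the shared fit (adjusted p = 0.00203 each).

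Read by rank among 15086 named genes, ordered by the BAT minus WAT change in AP20187 and then vehicle mice, Fabp3 stood at 2 and 3, Cidea at 4 and 9, Elovl3 at 23 and 24, Ebf2 at 721 and 982, Prdm16 at 846 and 237, Ppargc1a at 1058 and 613, Dio2 at 2831 and 206, Adrb3 at 7083 and 9185, and the tested probe of Zic1 at 8973 and 6911. Ucp1, Fabp3, Cidea and Elovl3 stood among the first 24 in both, and the regulators and the receptor lower.

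Genes of the same pathway outside the 10 members, in lists chosen with earlier results of these data known, gave the following counts. Ckmt2, Lhx8, Tbx15, Hoxc9 and some other list genes passed the filter on dim probes through 1 tissue alone. The counts of these lists are therefore given as a description. Of 20 other thermogenic effectors tested, 15 were higher and 1 lower in BAT with AP20187, and 16 were higher and 0 lower with vehicle. The shares of all features were 13.1% higher and 16.9% lower with AP20187, and 14.3% and 9.17% with vehicle. The 1 lower of 20 is thus no more than that share. Median changes of the effectors were 3.0 and 3.67 (all features -0.05 and 0.10). The effector that was lower is Gamt, an enzyme of creatine synthesis, with a log2 change of -3.32 (adjusted p = 0.00190). Cpt1b, which brings fatty acids into mitochondria, was 330-fold higher with AP20187 (adjusted p = 1.7e-05) and 328-fold with vehicle (4.11e-05). Otop1, a proton channel, was 171-fold higher with AP20187 and 242-fold with vehicle (116-fold without WAT vehicle 1 and 504-fold without WAT vehicle 2). Acot11, an acyl-CoA thioesterase of brown fat, was 99.4-fold higher with AP20187 and 217-fold with vehicle, and its calls held at 59.7-fold without BAT AP20187 2 and 119.5-fold without BAT vehicle 2. Ckmt2, a mitochondrial creatine kinase, was at least 90.7-fold higher with AP20187. With vehicle its size turned on 1 array, at least 65.8-fold with both BAT arrays, at least 13.2-fold without BAT vehicle 3 and at least 328.5-fold without BAT vehicle 2. Cox8b, a subunit of cytochrome oxidase, was 26.6-fold higher with AP20187 (42.5-fold without WAT AP20187 2) and 33.3-fold with vehicle.

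Of 14 other transcriptional regulators tested, 6 were higher and 1 lower in BAT with AP20187, and 9 were higher and 1 lower with vehicle. All features gave 13.1% higher and 16.9% lower with AP20187, and 14.3% and 9.17% with vehicle, so the 1 lower of 14 is no more than that share. The 1 that was lower in both is Nrip1, a corepressor of genes of energy use, with log2 changes of -2.09 and -2.86. Ppara, a nuclear receptor for fatty acids, was 97.7-fold higher with AP20187 (adjusted p = 0.00116) and 28.8-fold with vehicle (0.00871). Its WAT AP20187 levels were 0.84, -2.32 and 0.95, and without WAT AP20187 2, the low one, it was 46.5-fold higher (adjusted p = 0.00028). Ppargc1b, a close relative of Ppargc1a, was 15.2-fold and 21-fold higher. Lhx8 and Tbx15, developmental transcription factors, were at least 15.1-fold and at least 12-fold higher with AP20187, and at least 37-fold and at least 14.9-fold with vehicle. The bound of Tbx15 with vehicle was 8.62-fold without BAT vehicle 3 and 25.6-fold without BAT vehicle 2.

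Of 15 genes of adrenergic and hormonal control beside Adrb3, 4 were higher and 0 lower in BAT with AP20187, and 4 were higher and 1 lower with vehicle, Ffar4, a fatty acid receptor, at -0.99 on the log2 scale. Of all features, 13.1% were higher and 16.9% lower with AP20187, and 14.3% and 9.17% with vehicle, so that 1 of 15 lower is near the share of all features. Adcy3, an adenylate cyclase, was 16.1-fold higher with AP20187 (adjusted p = 0.00144) and 9.26-fold with vehicle (0.00714), a call that was lost without BAT vehicle 2 (5.71-fold, adjusted p = 0.0532). The adrenergic receptor gene Adrb1 was 3.82-fold higher with AP20187 (adjusted p = 0.0335), and the call was lost without BAT AP20187 2 (2.54-fold, 0.215), WAT AP20187 1 (2.69-fold, 0.0547), WAT AP20187 2 (0.0506) or wild type 2 (0.0523). Of 6 genes used as marks of beige fat, 1 was higher, Tnfrsf9, at 10.3-fold with AP20187 and 4.57-fold with vehicle, and 4 were lower in both comparisons, namely Hoxc9, Ear2, Klhl13 and Tbx1. With vehicle the calls of Ear2 and Klhl13 were lost without BAT vehicle 2 (adjusted p = 0.128 and 0.0579), and that of Ear2 also without either WAT array (0.0881 and 0.107). With AP20187 Ear2 lost its call without BAT AP20187 2 (0.0739) and Klhl13 without BAT AP20187 1 (0.05). Of 11 genes enriched in white fat, 10 were lower and 0 higher in each comparison, among them Lep, the hormone leptin, with a log2 change of -4.57 with AP20187 (adjusted p = 0.000848) and -3.41 with vehicle (0.00582), which was -2.70 (0.0445) without BAT vehicle 2 and -4.12 without BAT vehicle 3. Slc7a10, an amino acid transporter of white adipocytes for which 1 WAT AP20187 array was left out as an outlier spot, changed by -5.72 and -4.85.

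**Figure D3:**
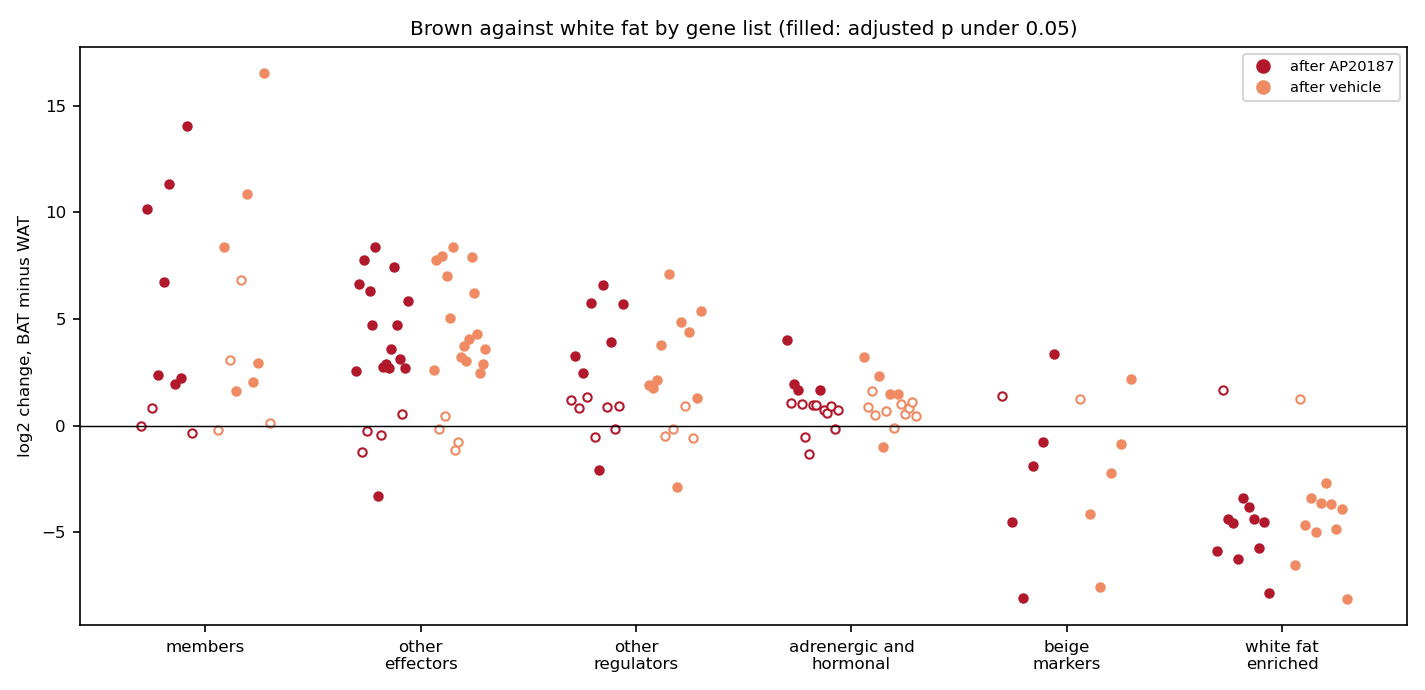
BAT minus WAT log2 change (y axis) of the 10 members and of 5 other lists, in mice given AP20187 (left) and vehicle (right) within each list; each point is a gene. The members and the other effectors lie mostly above 0, and 10 of the 11 genes enriched in white fat lie below it.

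In bulk tissue, fewer cells of a type and less RNA per cell cannot be told apart. Skeletal muscle markers, 14 of 14 on the array, summed to 9.71 and 8.83 in BAT after AP20187 and 6.16 and 10.38 after vehicle, against 3.13 to 4.68 in WAT after AP20187, 2.90 and 3.19 after vehicle and 2.85 to 6.23 in wild type (log2 summed level). Between 13 and 14 of them were well above background on BAT arrays and between 8 and 12 on WAT arrays. Of the 14, 13 passed the threshold as higher in BAT with AP20187, against 13.1% of all features, and 11 with vehicle, against 14.3%. Some of these markers may have passed the filter on dim probes through the BAT groups alone, so the counts are a description. Cpt1b, Ckmt2, Cox8b and Fabp3 are also expressed by muscle, and the part of muscle RNA in the tissue differences was not tested. On BAT vehicle 2 and 3, the arrays with the lowest and the highest muscle sum in BAT, Ckmt2 read -1.40 and 3.25, Fabp3 8.94 and 8.97, Cpt1b 6.36 and 5.81, and Cox8b 10.58 and 9.98. On BAT AP20187 1 and 2, where the muscle sums were 9.71 and 8.83, Fabp3 read 9.5 and 9.02. The SD over these arrays was 0.63 for Ckmt2, 0.03 for Cpt1b and 0.003 for Cox8b. Whether any of these levels follows the amount of muscle RNA was not tested. Epididymis markers summed to 11.67 and 3.87 on WAT AP20187 1 and 2, with 11 and 14 of 14 well above background, to 6.72 on wild type 3, with 8 of 14, and to -1.59 to 0.76 on the other assigned arrays, with 0 to 5 of 14. Mesothelium covers visceral fat, and its markers summed to -2.25 to -1.08 in BAT and 4.69 to 5.35 in WAT. Adipocyte markers summed to 12.01 to 12.43 in BAT and 11.01 to 12.19 in WAT, so adipocyte transcripts were abundant on every array.

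The next question was what AP20187 did to the programme within each tissue. In BAT, 0 of 10 members passed the threshold, against 0.00818% of all features (2 features), and 1 member had an unadjusted p under 0.05, against 7.37% of all features. The uncertainty was wide, since each group has 2 arrays. Ucp1 had a log2 difference of -0.10 (SE 0.69, 95% interval -1.66 to 1.46, adjusted p = 1). Ppargc1a had a log2 difference of 0.35 (-0.49 to 1.20, adjusted p = 0.952) and Fabp3 by 0.30 (-1.10 to 1.71, adjusted p = 1).

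Adrb3 was the member with the lowest p in BAT. Its difference with AP20187 was -1.23 on the log2 scale (SE 0.40, 95% interval -2.13 to -0.32, adjusted p = 0.499), and its other probe gave -1.31 (SE 0.39, adjusted p = 0.478). The other probe read 1.75 and 2.08 with AP20187, against 3.28 and 3.18 with vehicle. Both probes had groups that did not overlap, which held for 21.6% of all features in the lower direction. By tested probe, Fabp3 was the 1 member whose AP20187 arrays lay all above the vehicle arrays, against 15.8% of all features. Its other probe overlapped, at 9.26 and 8.75 with AP20187 against 8.80 and 8.78 with vehicle, whereas the other probe of Zic1 was higher without overlap, at 1.63 and 1.57 against 0.93 and 1.19 (adjusted p = 0.594 in the fit of all probes).

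In WAT, 0 of 10 members passed the threshold against vehicle, where 2.24% of all features did, and 2 members had an unadjusted p under 0.05, against 22.3%. Dio2, Ppargc1a and Ucp1 had groups that did not overlap and were higher with AP20187 (26.2% of all features), and Adrb3 and Ebf2 did not overlap and were lower (12.3%). Adrb3 had a log2 difference of -1.39 (SE 0.36, 95% interval -2.21 to -0.56, adjusted p = 0.0778). Its other probe, at 1.60, 2.87 and 2.69 with AP20187 against 3.63 and 3.63 with vehicle, gave -1.24 (adjusted p = 0.0988). Without WAT AP20187 1, which has the highest epididymis sum and the lowest adipocyte sum, the difference of Adrb3 was -1.02 (adjusted p = 0.0491). With AP20187 1 and 2 both left out, a setting chosen after seeing the data, it was -1.16 (adjusted p = 0.117). With slide as a fixed block it was -1.44 (SE 0.49, adjusted p = 0.318).

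Dio2 had a fitted ratio of 4.01 that did not pass (log2 difference 2.0, SE 1.16, 95% interval -0.62 to 4.63, adjusted p = 0.338). Its 3 AP20187 arrays lay between -0.27 and 0.52 and its vehicle arrays at -2.02 and -1.67. Ucp1 did not pass (adjusted p = 0.0813), and with 1 of 3 AP20187 arrays and neither vehicle array above background no fold is given. The lowest level well above background was itself higher on the AP20187 arrays, at -4.50 to -3.84, than on the vehicle arrays, at -5.16 and -5.07. Ppargc1a had a log2 difference of 0.45 (-0.32 to 1.22, adjusted p = 0.455) and Ebf2 by -0.73 (-1.55 to 0.09, adjusted p = 0.271). Cidea had a log2 difference of -1.61 (SE 1.45, adjusted p = 0.529), and by 0.19 without the spots in weak areas. Elovl3 had a log2 difference of 2.18 (SE 1.97, adjusted p = 0.529), and by -0.12 with slide as a fixed block.

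**Figure D4:**
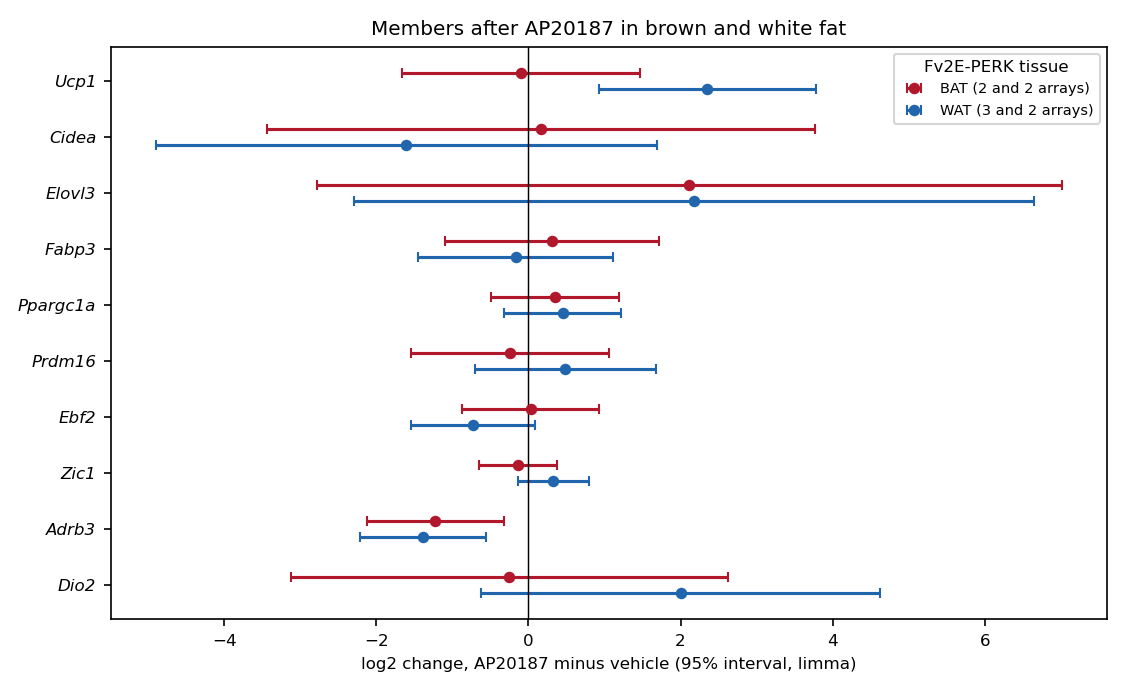
Log2 change with AP20187 over vehicle (x axis) of the 10 members in BAT (above) and WAT (below) for each gene, with 95% confidence intervals from limma. Only Adrb3 has an interval below 0 in both tissues, and no member passes the adjusted threshold in either.

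**Figure D5:**
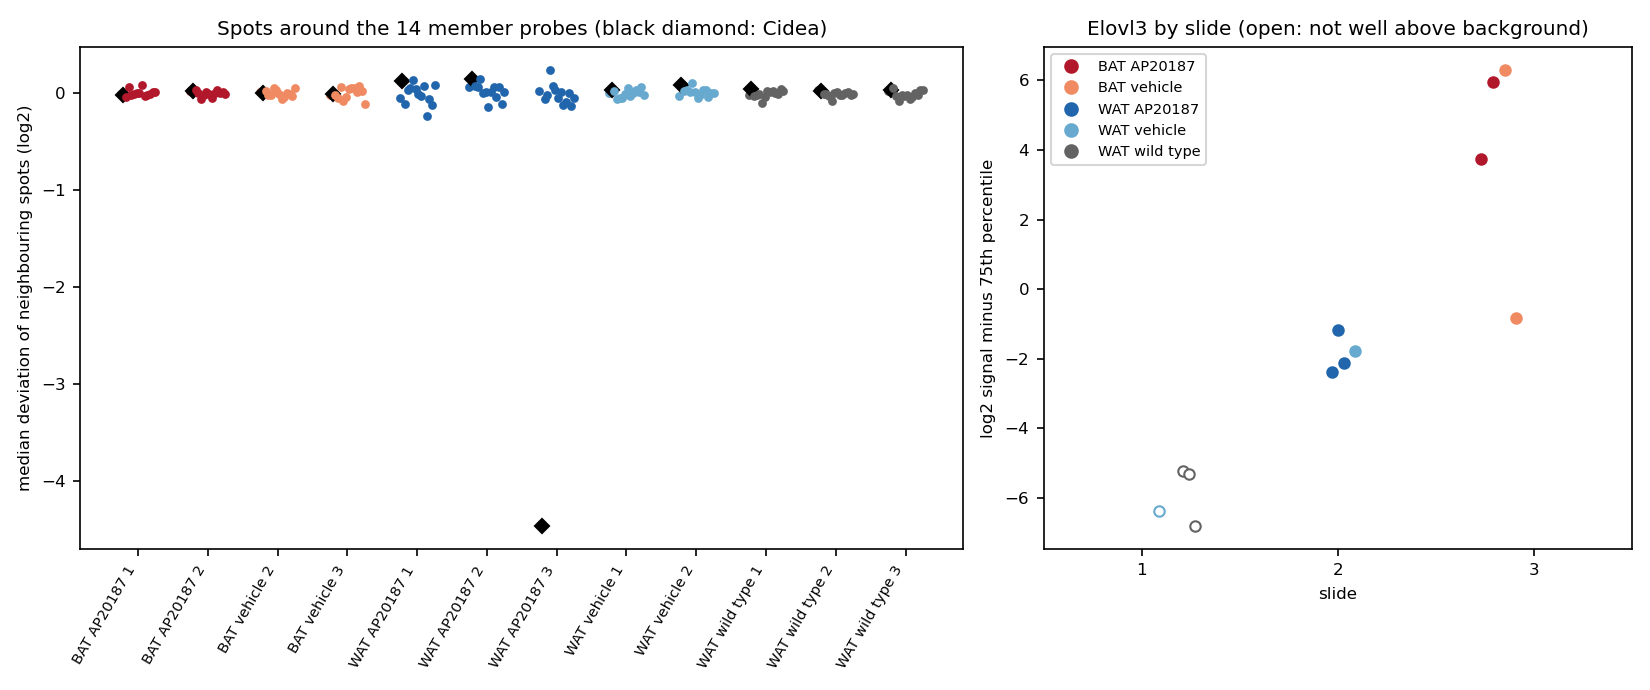
Left, median deviation (log2) of the neighbouring spots of the 14 member probes on each array, where the Cidea spot on WAT AP20187 3 stands at -4.47. Right, level of Elovl3 on each array by slide, where WAT vehicle 2 on slide 2 stands at -1.77, among the WAT AP20187 arrays of the same slide, and WAT vehicle 1 on slide 1 at -6.39, among the wild-type arrays.

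The responses of BAT and WAT to AP20187 were set against each other by an interaction term. Of the 10 members 0 passed by limma, as did 0% of all features, and 1 member, Ucp1, had an unadjusted p under 0.05 on values that were dim in WAT (adjusted p = 0.242). Over all features 4034 (16.5%) had an unadjusted p under 0.05. For Adrb3 the difference was 0.16 (SE 0.54, 95% interval -1.06 to 1.39, adjusted p = 0.903).

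Wild-type WAT gave a second baseline, without transgene or injection. WAT with AP20187 had 0 of 10 members past the threshold against it, where 8.87% of all features passed, and 3 members had an unadjusted p under 0.05, against 28.6%. Dio2, Elovl3 and Ucp1 did not overlap and were higher (27.2% of all features), and Adrb3 and Fabp3 did not overlap and were lower (10.9%). Adrb3 had a log2 difference of -1.19 (SE 0.33, 95% interval -1.93 to -0.45, adjusted p = 0.0546), and its other probe, at 1.60 to 2.87 with AP20187 against 3.59 to 4.21 in wild type, by -1.52 (adjusted p = 0.0349). Fabp3 had a log2 difference of -1.67 (-2.82 to -0.52, adjusted p = 0.0708), and wild type 3, which has the highest muscle sum in WAT, had its highest level. Dio2 had a log2 difference of 1.98 (SE 1.03, adjusted p = 0.245). The call of Dio2 was made when either BAT AP20187 array, neither of which is in this comparison, was left out of the shared fit (adjusted p = 0.0379 each). Elovl3, above background on all 3 AP20187 arrays and on no wild-type array, had a bound of at least 7.93-fold by this scaling and did not pass (adjusted p = 0.186), and its fitted log2 difference was 3.89 here and 0.86 under normexp with quantile scaling. Ucp1 did not pass either (adjusted p = 0.0591), and no fold is given, since it was above background on 1 of these 6 arrays. The comparisons of WAT with AP20187 with vehicle and with wild type share their AP20187 arrays.

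Among the other pathway genes, none of the 5 lists had a gene past the threshold with AP20187 in BAT. In WAT against vehicle 1 regulator passed, Lhx8 (adjusted p = 0.0496), with both groups below background, so no fold is given, and the call was lost without any 1 of 10 of the 12 arrays (0.0627 to 0.279). Against wild type, 2 of 20 effectors rose, Plin5, a lipid droplet protein, by 3.19-fold (adjusted p = 0.0397) and Ppif, a mitochondrial cyclophilin, by 2.15-fold (0.0470), and 1 of 14 regulators, Esrra, a receptor that drives mitochondrial genes, by 2.25-fold (0.0316). These shares are near the 7.2% of all features that were higher, and each of the 3 calls was lost when any 1 of the 3 wild-type arrays was left out (adjusted p between 0.101 and 0.157). Lep in WAT had a log2 difference of -0.24 with AP20187 over vehicle (adjusted p = 0.817), and Cox8b by 0.40 (adjusted p = 0.691).

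Transgenic WAT with vehicle had 0 of 10 members past the threshold against wild-type WAT, where 0.0245% of all features passed. An unadjusted p under 0.05 was found for 1 member, against 5.02% of all features. Fabp3 had a log2 difference of -1.50 (95% interval -2.79 to -0.22, adjusted p = 0.876), and without overlap (15.3% of all features in the lower direction). Cidea had a log2 difference of 0.95 (SE 1.45, adjusted p = 1), also without overlap (19.5% in the higher direction).

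The genes whose profiles over the 12 arrays were most like each member are given as a description, by the root mean square difference of centred log2 levels. The 11401 candidates were named genes well above background on every BAT array, with a value on all 12 arrays. Genes detected in WAT alone could therefore not appear. Nearest to Ucp1 were Fabp3 (2.79), Myh4 (3.05), Myh8 (3.47), Cpt1b (3.5), Cidea (3.52) and Ttn (3.69), of which Myh4, Myh8 and Ttn are muscle genes. Nearest to Fabp3 were Cpt1b (1.43), Cidea (1.68) and Otop1 (1.80), and nearest to Cidea were Tnnt3 (1.48), Cpt1b (1.59) and Fabp3 (1.68). Tnnt3 is among the skeletal muscle markers. Elovl3 was nearest to Otop1 (2.02), Tuba8 (2.06) and Cox7a1 (2.18). Nearest to Ppargc1a were Idh2 (0.27), Pitpnc1 (0.30) and Clpb (0.31), to Prdm16 Neurl1a (0.37), Rgl3 (0.41) and Pld6 (0.41), and to Ebf2 Spata22 (0.26), Stom (0.26) and Naprt (0.28). Adrb3 was nearest to Epor (0.37), Rock2 (0.38) and Nfkbiz (0.39), and Dio2 to Egr1 (0.81), Ank (0.92) and Parm1 (0.93). The tested Zic1 probe varied little (SD 0.21), and Zfp771 and Met were among its 3 nearest (0.11 each). All points share the split between tissues and slides.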

How the data were processed

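The members and lists were chosen with earlier results of these data known. Members were found by the RefSeq record of each probe, with names from GRCm38.p6. Of 55681 non-control probes, 26056 matched 1 gene, 0 several and 29625 none.

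Per the file headers, Agilent Feature Extraction 10.7.1.1 made the intensity values that the authors deposited as processed signal, on an array designed for build mm9, with flags for well above background, saturation and outliers. The authors' deposited value table is also an intensity. For 99.0 to 99.2% of its filled cells it differed from the processed signal by less than 0.1%. It therefore shows neither scaling nor centring, and higher means brighter. Between 14.9% and 40.4% of a column was blank. Column medians are over the filled cells and so are not comparable between arrays. Its column medians were 59.1 and 51.9 on the BAT AP20187 arrays, 51.7 and 57.3 on the BAT vehicle arrays, 48.2, 32.5 and 90.6 on the WAT AP20187 arrays, 96.5 and 82.9 on the WAT vehicle arrays, 89.1, 93.3 and 87.3 on wild-type arrays 1 to 3, and 104 on the array whose labels contradict each other.

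Outlier spots were dropped, and each array's 75th percentile was subtracted from its log2 signal. A probe entered where all arrays of some group had it well above background (32616 probes). Ucp1, 1 probe of Zic1, Ckmt2, Lhx8 and Tbx15 entered through the BAT groups alone, and Hoxc9 through the WAT groups alone. Some other genes of the pathway lists also entered through the groups of 1 tissue alone. A gene was tested on its brightest probe by mean, which gave 24459 features, 15086 of them named. All 12 assigned arrays were fitted with limma 3.58.1 in R 4.3.3 (lmFit, eBayes), with Benjamini-Hochberg adjustment over all features and a threshold of 0.05. The fit was tested on simulated data. Where a probe was dim on every array of 1 group, "at least" folds set the brighter mean against, per array, the higher of the lowest signal well above background and the probe's own. Pathway genes were named by size of change (up to 4 a list), or by the smallest p where none passed. A gene that this rule names is not reported here. Replicate numbers were not used as pairs in the main fit. Same-numbered deviations correlated at -0.225 to 0.105, and whether same-numbered arrays share a mouse was not tested. Precision is limited by the number of arrays. Alternatives were other scalings and filters, normexp (offset 50, on the median signal), the value table, the mean of probes, a trended prior, slide or replicate blocks, the contradictory array placed in BAT or WAT, and leaving out arrays singly.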

Additional observations from a re-analysis of the deposited data

Results flagged for a closer look

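The array with contradictory labels (title, description and tissue label BAT with vehicle, source name WAT) was in no comparison. On it 6 of 10 members lay above the highest WAT array of vehicle-injected or wild-type mice, as did 16.5% of 24454 features. Ucp1 was at -4.57, against -5.26 for the highest of those arrays and 9.87 to 10.63 in BAT. Cidea was at 3.10, against 3.04 and 10.85 to 11.56 in BAT. Ppargc1a was at 0.28, against 0.15 and 1.48 to 2.72 in BAT. Zic1 was at -1.77 on the tested probe, against -1.91 and -2.17 to -1.85 in BAT. Adrb3 was at 7.5, against 7.36 and 5.54 to 7.02 in BAT. Dio2 was at -0.78, against -1.64 and -1.57 to 3.53 in BAT. The other members stood at -4.05 for Elovl3, -1.45 for Fabp3, -1.62 for Prdm16 and 1.30 for Ebf2. Its values for Ucp1, Cidea, Fabp3, Elovl3, Prdm16, Ebf2 and Ppargc1a all lay below every BAT array. It lies on slide 2 with WAT arrays, whereas the assigned BAT arrays are on slide 3. Its mesothelium markers summed to 5.17, against -2.25 to -1.08 in BAT and 4.69 to 5.35 in WAT. Its sample of origin was not tested.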

How the results depend on the processing

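Over the settings that leave out no single array, 5 to 8 of 10 members passed for BAT over WAT with AP20187 and 0 to 8 with vehicle, where the 0 is the contradictory array as BAT vehicle. Fitting only the arrays compared ended the AP20187 calls of Ebf2 (adjusted p = 0.0501) and Prdm16 (0.0816), and Elovl3 with vehicle passed in 7 of 14 settings. For WAT with AP20187 over vehicle, 1 member passed when the percentile was taken over detected probes, with the filter on all 12 arrays and with the contradictory array as WAT vehicle (Adrb3 each time). With no filter or with slide as a random block 2 passed (Adrb3 and Ucp1). Without WAT AP20187 1 and 2, the AP20187 arrays with epididymal transcripts, 1 passed (Cidea, its remaining spot in a weak area). Wild type 3, which also has such transcripts, stayed in that setting. The same setting gave 1 (Cidea) for the difference of responses. For WAT with AP20187 over wild type, 1 passed under normexp with quantile, the value table, the percentile over detected probes and the mean of probes (Adrb3). Without WAT AP20187 1 and 2, with wild type 3 kept, 1 passed (Cidea). Under quantile, no filter and a trended prior 2 passed (Adrb3, Ucp1). The filter on all 12 arrays and the contradictory array as WAT vehicle also gave 2 (Adrb3, Fabp3). Every probe on its own gave 2 (Adrb3, and a Zic1 probe that was dim on all 6 arrays). With slide as a random block 7 passed, where the estimated correlation within slides was negative (-0.248) and slide cannot be told apart from this comparison. With 1 array left out, 6 to 7 passed for BAT over WAT with AP20187, 4 to 7 with vehicle, 0 to 1 for WAT over vehicle, 0 to 2 over wild type and 0 elsewhere. The replicate block left the counts at 7, 6 and 0 elsewhere, with Elovl3 gained and Ebf2 lost (1.46, adjusted p = 0.0598) for BAT over WAT with vehicle. The fixed slide block could not be fitted for the tissue comparisons or for WAT AP20187 over wild type. Leaving out weak areas, leaving out WAT AP20187 1 and 2 together and testing every probe on its own were chosen after seeing the data. Adrb3 passed for BAT over WAT with vehicle under normexp with quantile scaling. The following changed direction, and the cause was not tested except where named. Adrb3 was 0.011 for BAT over WAT with AP20187 under the percentile over detected probes. Its difference of responses was -0.013 with the contradictory array as BAT vehicle and -0.07 without WAT AP20187 1 and 2. Cidea for WAT over vehicle was 0.19 without weak areas, and Elovl3 was -0.12 with slide as a fixed block. Ucp1 in BAT was 0.007 under quantile, 0.43 with the replicate block and 4.84 with the contradictory array. Zic1 for BAT over WAT with AP20187 was 3.44 under normexp with quantile scaling and 7.62 under the value table, where its other probe was the brighter and so was tested, and 3.68 for the mean of probes, and with vehicle -0.10 under the percentile over detected probes. With 1 array left out, ranges were -0.41 to 0.22 for Adrb3 and -1.73 to 3.37 for Dio2 (BAT over WAT, AP20187), -0.019 to 0.28 for Zic1 (BAT over WAT, vehicle), -0.10 to 0.80 for Ppargc1a and -0.47 to 0.27 for Ucp1 (BAT, AP20187 over vehicle), -3.03 to 0.19 for Cidea and -0.12 to 4.49 for Elovl3 (WAT, AP20187 over vehicle), and -0.21 to 0.42 for Adrb3 (difference of responses). Under the percentile over detected probes the median of all features was -0.16 for WAT over vehicle (main scaling 0.15), -0.21 over wild type (0.16) and -0.13 for BAT over WAT with vehicle (0.10). Dim probes limit what can be said of Ucp1 and Elovl3 in WAT.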
